A study of Mus musculus with 9 samples.

Results

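BV2 cells, an immortalised line of mouse microglia, were given brain-derived extracellular vesicles (BDEV) or vehicle, and the vesicle libraries of both preparations were set together against vehicle. Members were all 9 of the 9 libraries of the series. The 3 libraries labelled Vehicle formed the reference group, and 6 vesicle libraries formed the other group. Of those 6, 3 received CON-BDEV (library names with "EV Saline") and 3 received SE-BDEV (library names with "EV Pilo"), where SE stands for status epilepticus in the series title. All 9 libraries were labelled with the same cell line and the same polyA RNA and directional library kit. The dose, the length of exposure and the donors of the vesicles are not given in the sources used here, nor is it said whether the 3 libraries of a group came from separate cultures. The p-values therefore measure how far these libraries scatter, which may be technical scatter alone. Expression was given as FPKM, fragments scaled by transcript length and by the size of the library. The joined tables hold 24318 genes, and the 10532 genes whose average over the libraries reached 1 FPKM were tested.

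Extracellular vesicles are membrane particles that cells release and other cells take up, and microglia, the resident phagocytes of the brain, take up such particles together with debris, lipid and heme-containing material. Cells that face electrophiles or heme use the transcription factor NRF2 to raise glutathione and antioxidant enzymes. Cells that take in sterol keep the SREBP transcription factors inactive in the endoplasmic reticulum and lower the genes of sterol and fatty acid synthesis.

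The design text and the library labels disagree on the line: the former names BV2, and all 9 cell line labels name N2a, which is a neuroblastoma line of the mouse. The expression values carried microglial markers. Of 30 listed microglia and macrophage markers, 27 were at 1 FPKM or more and none was at 0 in all libraries, with Cd68 at a mean of 740.2 FPKM and Csf1r at 82.6 FPKM. Of 22 listed neuroblastoma markers, 5 reached 1 FPKM and 9 were at 0 in all 9 libraries, among them Mycn and Th. Of those that reached 1 FPKM, Uchl1 was at a mean of 90.2 FPKM, Nefh at 77.6 and Ina at 9.72. P2ry12, a receptor of resting microglia in tissue, was at a mean of 0.014 FPKM. The deposited tables hold no counts. The size of 1 fragment, read from low values of 487 to 545 genes per library, placed the libraries between 0.877 (CON-BDEV 2) and 1.01 (Vehicle 2) times the depth of Vehicle 1, so depth differed little between groups.

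Brain vesicles of either preparation raised antioxidant, heme-handling and lipid-uptake genes and lowered genes of sterol and fatty acid synthesis. In the limma fit on log2(FPKM + 1), 1414 genes (13.4% of those tested) passed a Benjamini-Hochberg adjusted p of 0.05, 850 of them higher (8.07%) and 564 lower (5.36%) in the vesicle group. Most of these differences were small. The median size among the 1414 genes was 0.23 on the log2 scale, and 1017 of them (9.66% of tested genes) differed by less than 0.3. A log2 difference of at least 1 was reached by 18 called genes (0.171%), all higher: Nqo1, Gclm, Slc7a11, Hmox1, Treml4, Ccl7, Slc48a1, Cyb5a, Cd36, Agt, Il4, Ptgr1, Creg1, Blvrb, Cat, Prdx1, Slc40a1 and Esd. No called gene was lower by 1 or more. In 1110 genes (10.5%) every vesicle library lay above every Vehicle library, and in 879 (8.35%) every vesicle library lay below, 1989 in all (18.9%). Genes both called and without overlap numbered 780 higher (7.41%) and 522 lower (4.96%). The number of calls depended most on the Vehicle libraries: without Vehicle 1 the count was 535, without Vehicle 2 it was 650, and without Vehicle 3 it was 821.

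**Figure D1:**
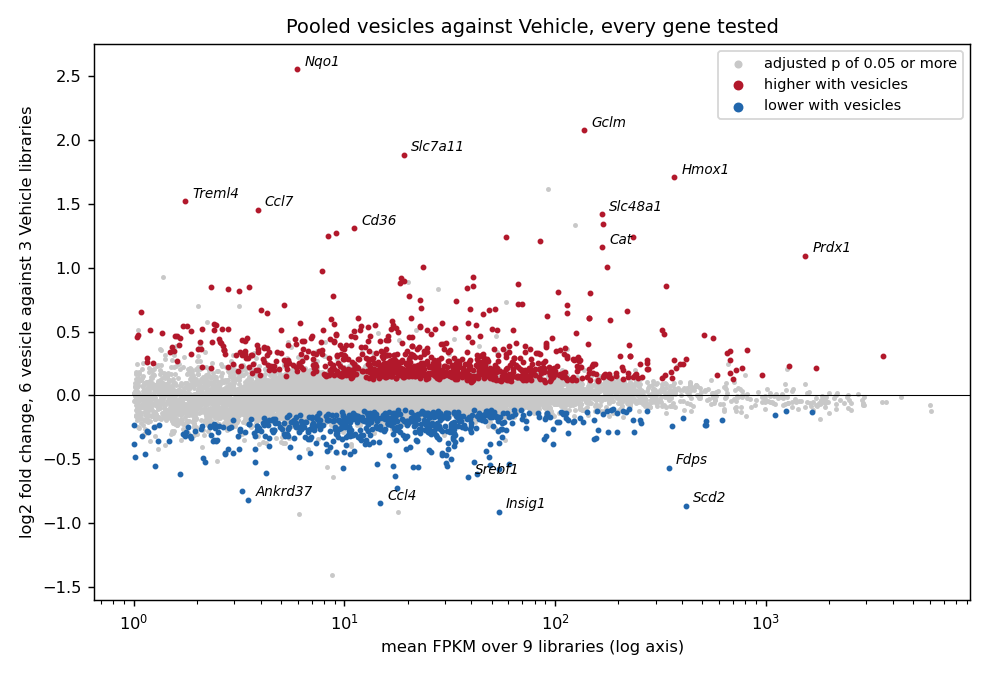
Log2 fold change of the pooled vesicle group against Vehicle, on the log2(FPKM + 1) scale, for each tested gene (y axis) against its mean FPKM (log x axis). Called genes reach 2.56 on the higher side (Nqo1), whereas no called gene, Insig1 and Scd2 included, lies at −1 or below.

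Antioxidant and glutathione genes held 4 of the 5 highest differences, Treml4 being the other. Of 32 tested genes on a list of NRF2 targets and antioxidant enzymes, 25 rose and 1 fell, against 8.07% and 5.36% of all tested genes, and the median log2 difference of the list was 0.60, against 0.002 over all genes. The count of higher members stayed between 23 and 25 when any 1 library was left out.

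Nqo1 encodes a quinone reductase and is a classical NRF2 target. Its FPKM was 0.406, 0.597 and 0.815 in the Vehicle libraries, 9.85, 4.73 and 10.6 with CON-BDEV and 7.51, 8.14 and 11.2 with SE-BDEV. The lowest vesicle library, CON-BDEV 2, was still several times above the highest Vehicle library, and the groups did not overlap. The mean went from 0.606 ± 0.205 (SD, n = 3) to 8.67 ± 2.40 (SD, n = 6) FPKM, a 14.3-fold ratio of means. On the log2(FPKM + 1) scale, which understates the change of low genes, the difference was 2.56 ± 0.20 (SE; limma adjusted p = 1.48e-05). Nqo1 was below 1 FPKM in every Vehicle library and passed the filter through the vesicle group alone, so that its entry into the test was tied to its being high there. The authors' deposited tables gave Nqo1 log2 fold changes of 3.79 with CON-BDEV and 3.89 with SE-BDEV but q-values of 0.599 and 0.605, so the gene passed here and not there.

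Gclm encodes the modifier subunit of glutamate-cysteine ligase, the enzyme of the rate-limiting step of glutathione synthesis. Vehicle libraries held 43.8, 39.9 and 42.8 FPKM, CON-BDEV libraries 197, 125 and 220.0, and SE-BDEV libraries 166, 181 and 217. All vesicle libraries were high, with CON-BDEV 2 the lowest of them. The log2 difference was 2.08 ± 0.14 (SE; limma adjusted p = 5.65e-06). Gclc, the catalytic subunit of the same enzyme, rose less, from 36.7 ± 0.391 to 59.4 ± 5.29 FPKM, a log2 difference of 0.68 (limma adjusted p = 0.000104).

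Slc7a11 encodes the light chain of the cystine-glutamate exchanger that supplies cysteine for glutathione. Its Vehicle values were 6.01, 6.24 and 6.15 FPKM, against 20.2, 22.0 and 32.2 with CON-BDEV and 30.2, 26.8 and 23.05 with SE-BDEV. The Vehicle libraries lay close together and far below the vesicle libraries, and here CON-BDEV 1, not CON-BDEV 2, was the lowest of the vesicle group. The log2 difference was 1.89 ± 0.12 (SE; limma adjusted p = 4.74e-06). Slc3a2, the heavy chain of the same exchanger, differed by 0.30 and lost its call without Vehicle 2 or Vehicle 3 (largest limma adjusted p = 0.0823).

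Hmox1, heme oxygenase 1, opens the heme ring and releases iron. It was at 136, 141 and 143 FPKM in Vehicle, at 578, 260.4 and 569 with CON-BDEV and at 391, 417 and 681 with SE-BDEV. No vesicle library came near the Vehicle range, but the vesicle libraries were spread widely, from CON-BDEV 2 to SE-BDEV 3. The mean rose from 140.2 ± 3.36 to 483 ± 154 FPKM (log2 difference 1.71 ± 0.23 SE, limma adjusted p = 0.000799).

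Enzymes that remove peroxide also rose. Prdx1, a peroxiredoxin, was among the most abundant: 852, 855 and 926 FPKM in Vehicle against 1949, 1575 and 2079 with CON-BDEV and 1825, 1867 and 1975 with SE-BDEV (log2 difference 1.09, limma adjusted p = 4.74e-06). Cat, catalase, rose from 90.4 ± 1.87 to 205 ± 24.0 FPKM (1.16, limma adjusted p = 1.22e-05). Both genes separated the groups without overlap. Sulfiredoxin (Srxn1, 0.88), glutathione reductase (Gsr, 0.71), thioredoxin reductase 1 (Txnrd1, 0.61) and superoxide dismutase 1 (Sod1, 0.47) rose by less, as did the NADPH-producing enzymes Me1 (0.75), G6pdx (0.66) and Pgd (0.51). Gpx1, glutathione peroxidase 1, was the 1 member that fell. It was at 226, 213 and 231 FPKM in Vehicle and between 162 and 195 in the vesicle libraries, a log2 difference of −0.29 (limma adjusted p = 0.00709). Nfe2l2, which encodes NRF2 itself, differed by −0.11 (limma adjusted p = 0.166), and Keap1, its inhibitor, by −0.01 (limma adjusted p = 0.941). Neither transcript passed the test.

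**Figure D2:**
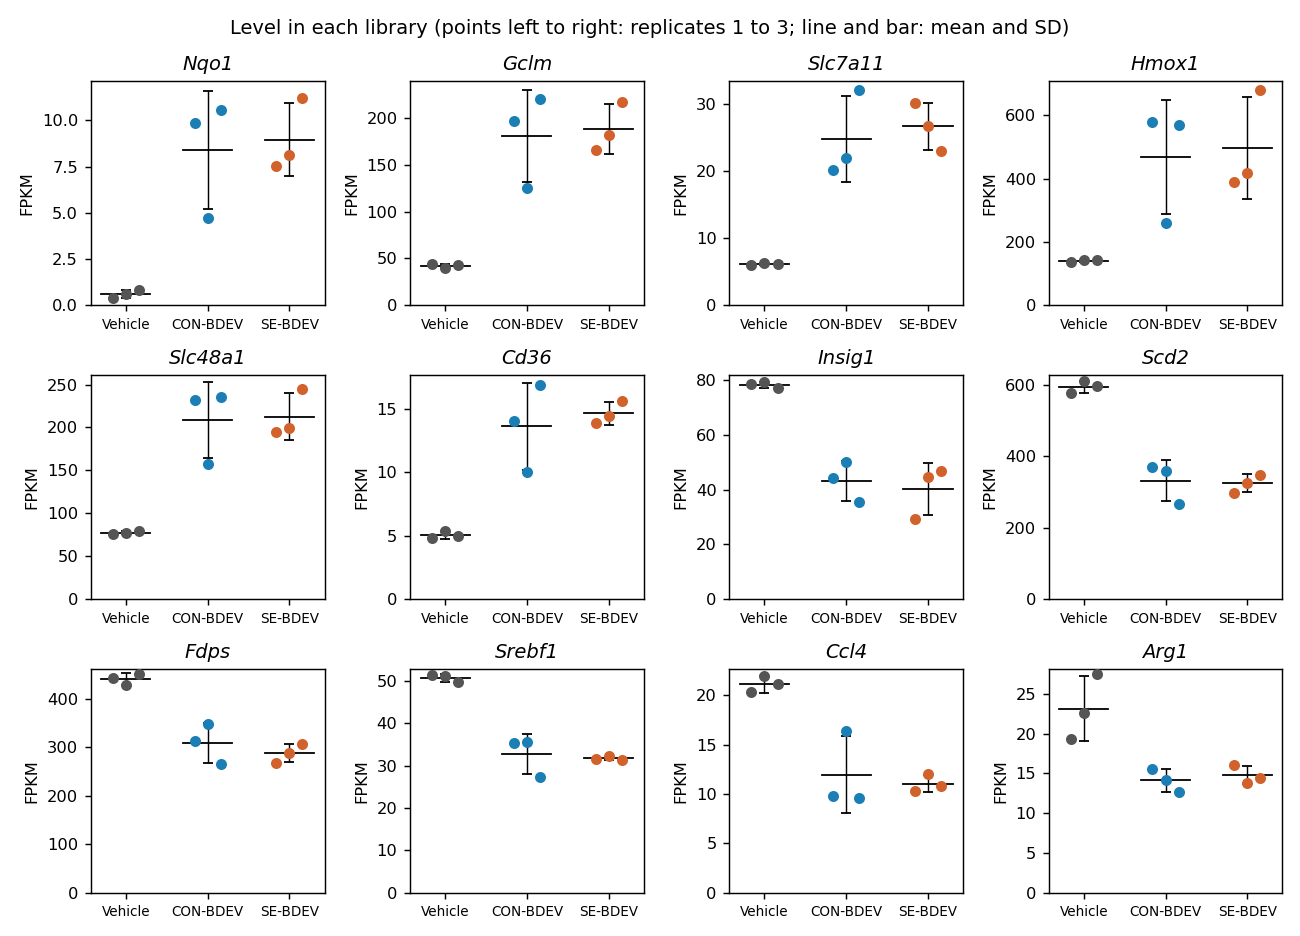
FPKM per library (y axes) in Vehicle, CON-BDEV and SE-BDEV for 12 genes, with points for libraries, a line for the group mean and a bar for the SD (n = 3 each). Nqo1, Gclm, Slc7a11, Hmox1, Slc48a1 and Cd36 are higher, and Insig1, Scd2, Fdps, Srebf1, Ccl4 and Arg1 lower, in all 6 vesicle libraries than in any Vehicle library.

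Promoter letters are shown for 3 of the antioxidant genes that rose together, because NRF2 binds the antioxidant response element, searched here as TGACNNNGC on both strands. Windows from RefSeq (GRCm38.p6) run from 250 bases before to 50 bases after a gene's start. Of the 32 tested list members, 27 had a window, and 11 of these (40.7%) held a match, against 1403 of 8135 tested genes with a window (17.2%). The share was 19.6% among all called higher genes with a window. On the sterol list, where most members fell, it was 4 of 17 (23.5%). No test was made of these differences, and a match in letters is not a bound site. The 3 genes shown were picked from those with a match before the start, and no match was found for Nqo1 or Slc7a11. The stretches below lie on the plus strand before the start, 5′ to 3′, and capitals mark the match, which reads as the motif on the opposite strand.
Gclm promoter, chr3:122245393-122245492: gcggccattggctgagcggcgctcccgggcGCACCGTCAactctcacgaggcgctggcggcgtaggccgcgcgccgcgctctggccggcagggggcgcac
Prdx1 promoter, chr4:116685436-116685535: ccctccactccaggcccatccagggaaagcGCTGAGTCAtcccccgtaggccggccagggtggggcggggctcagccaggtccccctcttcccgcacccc
Txnrd1 promoter, chr10:82859084-82859183: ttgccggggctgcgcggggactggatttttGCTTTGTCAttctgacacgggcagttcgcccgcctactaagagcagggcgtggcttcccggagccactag
The match begins 134 bases before the start in Gclm, 133 in Prdx1 and 92 in Txnrd1. Nfe2l2, which did not pass the test, also held a match, 240 bases before its start.

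Genes that move heme and iron rose with Hmox1, which is on this list too. Of 17 tested members of a heme and iron list, 9 rose and none fell (8.07% and 5.36% of all tested genes), and the list's median was 0.19. Slc48a1 encodes a heme transporter of the lysosomal membrane (listed locus mm9 chr15:97614796-97674933, which may take in neighbouring genes). It was at 75.3, 77.2 and 79.5 FPKM in Vehicle, at 232, 158 and 236 with CON-BDEV and at 194, 199.5 and 244 with SE-BDEV. CON-BDEV 2 was lowest among the vesicle libraries and still well above Vehicle. The log2 difference was 1.42 ± 0.11 (SE; limma adjusted p = 1.84e-05).

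Blvrb, biliverdin reductase B (mm9 chr7:28232997-28251000), rose from 44.4 ± 0.745 to 105 ± 9.05 FPKM. Its 3 Vehicle libraries were within 43.8 to 45.2 FPKM and its vesicle libraries within 95.1 to 119 (log2 difference 1.21 ± 0.06 SE, limma adjusted p = 8.38e-07). Slc40a1, ferroportin, the exporter of cellular iron (mm9 chr1:45964915-45982439), was at 13.98, 13.7 and 13.01 FPKM in Vehicle, 28.6, 22.0 and 32.2 with CON-BDEV and 25.4, 27.8 and 35.3 with SE-BDEV. The groups were again apart, with a log2 difference of 1.01 ± 0.11 (SE; limma adjusted p = 0.000224). Slc11a1, a metal transporter of phagosomes, differed by 0.81 (limma adjusted p = 4.74e-06), and Abcb6, a porphyrin transporter, by 0.74 (limma adjusted p = 5.15e-05). Tfrc, the transferrin receptor that brings iron in, rose by 0.40 (limma adjusted p = 0.0157). The ferritin genes Fth1 and Ftl1, which store iron, are not part of these tests, because the quantifier failed on Fth1 in all vesicle libraries and on Ftl1 in the CON-BDEV libraries and listed these values at 0. Cyb5a, a heme-binding electron carrier that is on neither list, rose from 81.8 ± 4.57 to 212 ± 40.8 FPKM (1.34, limma adjusted p = 0.000138).

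Genes of sterol synthesis and uptake fell together. Of 23 tested members, 16 fell and none rose (5.36% and 8.07% of all tested genes), and the median was −0.42. Leaving out any 1 library left 14 to 18 members lower. Insig1, which holds SREBP in the endoplasmic reticulum and is itself an SREBP target, fell most. Its FPKM was 78.7, 79.3 and 77.2 in Vehicle, 44.3, 49.99 and 35.5 with CON-BDEV and 29.4, 44.6 and 46.9 with SE-BDEV. Every vesicle library was low, with SE-BDEV 1 and CON-BDEV 3 the lowest, and the log2 difference was −0.91 ± 0.13 (SE; limma adjusted p = 0.00115).

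Within the mevalonate route, Fdps, farnesyl diphosphate synthase (mm9 chr3:88897510-88905889), went from 442, 428 and 452 FPKM in Vehicle to 313, 349 and 266 with CON-BDEV and 269, 288 and 307 with SE-BDEV. The groups did not overlap, and the log2 difference was −0.57 ± 0.07 (SE; limma adjusted p = 0.000602). Pmvk, phosphomevalonate kinase, differed by −0.55 (limma adjusted p = 0.000578), and Lss, lanosterol synthase, by −0.54 (limma adjusted p = 0.00115). Sqle, squalene epoxidase, did not pass, at −0.18 (limma adjusted p = 0.0621). Srebf2, the sterol-sensing transcription factor of the pathway, fell by 0.33 on the log2 scale (limma adjusted p = 0.00405), whereas Scap, its escort protein, differed by 0.05 (limma adjusted p = 0.499). The sterol regulatory letters TCACNCCAC, searched on both strands, were in the window of none of the 17 list members that had one, and in 113 of 8135 tested genes (1.39%). That says only that these letters are not in these windows.

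Fatty acid synthesis and desaturation genes followed the same direction, with 12 of 17 members lower and 1 higher (5.36% and 8.07% of all tested genes) and a median of −0.24. Scd2, a stearoyl-CoA desaturase, fell from 578, 611 and 597 FPKM in Vehicle to 371, 359 and 266 with CON-BDEV and 298, 326 and 349 with SE-BDEV. The highest vesicle library was far below the lowest Vehicle library, and the log2 difference was −0.87 ± 0.09 (SE; limma adjusted p = 0.000128). Srebf1, the transcription factor of fatty acid synthesis, fell from 50.8 ± 0.928 to 32.3 ± 3.03 FPKM (−0.64, limma adjusted p = 0.000168). Its listed locus (mm9 chr11:59918515-60034106) may take in neighbouring genes. Fasn, fatty acid synthase, fell from 76.0 ± 3.44 to 52.2 ± 5.75 FPKM (−0.54, limma adjusted p = 0.00113). Neither gene's groups overlapped. The member that rose was Me1, malic enzyme, which is also on the antioxidant list and makes NADPH (0.75, limma adjusted p = 5.63e-05).

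Targets of LXR, a receptor for oxysterols, were lower where they changed: 5 of 13 fell and none rose (8.07% higher and 5.36% lower over all tested genes), with a median of −0.13, and 3 fell without Vehicle 1 or without Vehicle 2. The 5 include Srebf1, which is also on the fatty acid synthesis list. Abca1, which exports cholesterol, was at 34.1, 37.8 and 35.7 FPKM in Vehicle, 24.5, 26.8 and 24.7 with CON-BDEV and 28.1, 27.1 and 22.99 with SE-BDEV. The groups were apart, with a log2 difference of −0.47 (limma adjusted p = 0.000562). Apoe, a lipid carrier and one of the most abundant transcripts, was at 2970.4 ± 83.4 FPKM in Vehicle and 2837 ± 166 in the vesicle group (limma adjusted p = 0.392). Among genes of lipid droplets and fatty acid oxidation, 6 of 20 rose and 3 fell (8.07% higher and 5.36% lower over all tested genes). The 6 include Cd36 and Lipa, which are also on the scavenger receptor and lysosomal lists. Cpt1a, which brings fatty acids into mitochondria, rose by 0.53 (limma adjusted p = 0.00575), Fabp4, a fatty acid binding protein, fell by 0.53 on the log2 scale (limma adjusted p = 0.000386), and Plin2, a lipid droplet coat protein, differed by 0.01 (limma adjusted p = 0.937).

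**Figure D3:**
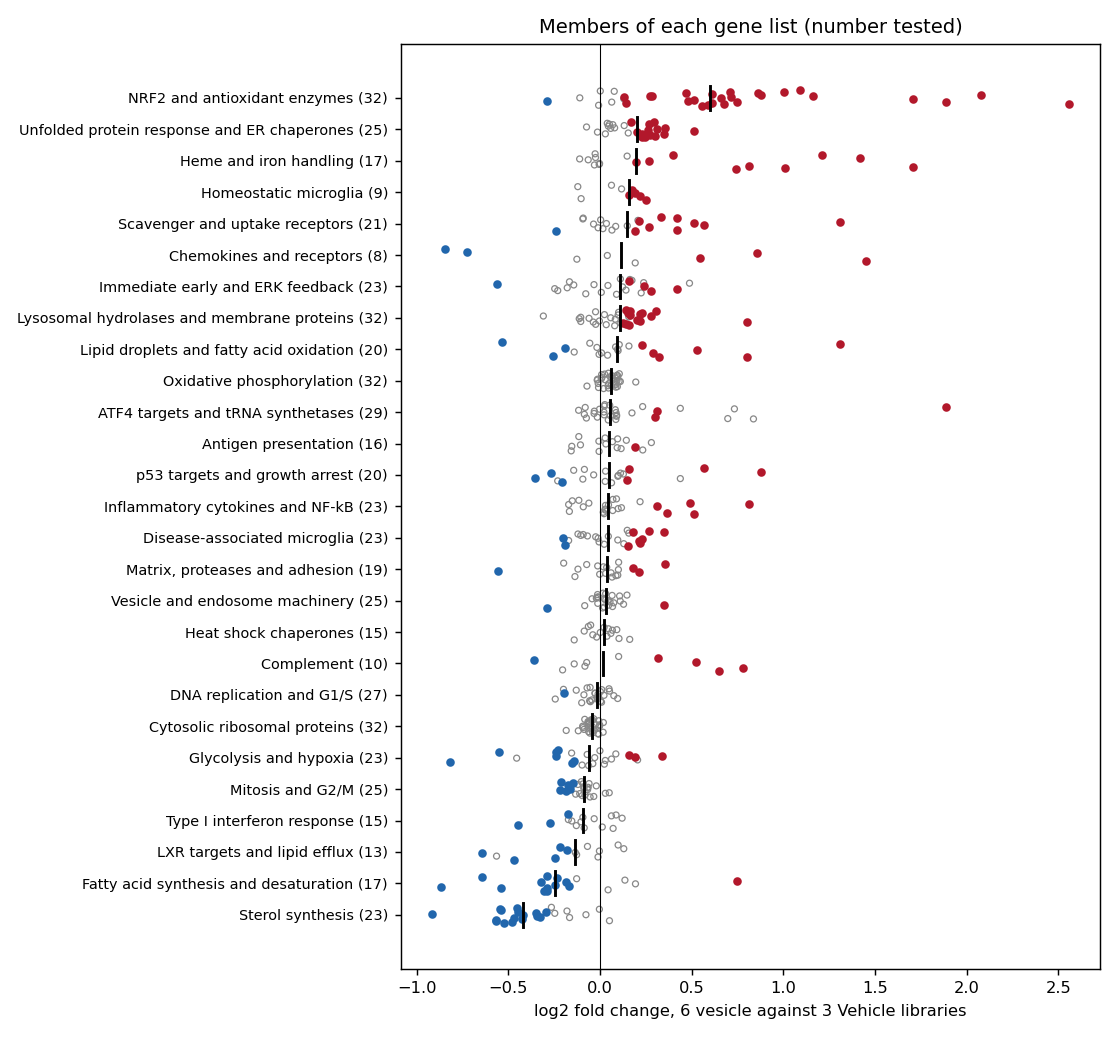
Log2 fold change against Vehicle (x axis) of every tested member of each gene list (rows), with a bar for the list median. Filled red and blue points are called higher and lower and open points did not pass. The antioxidant list sits to the right (median 0.60) and the sterol list to the left (median −0.42).

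Receptors for lipid and debris rose. Of 21 scavenger and phagocytic receptor genes, 9 were higher and 1 was lower (8.07% and 5.36% of all tested genes), with a median of 0.15. Cd36, which takes up long-chain fatty acids and oxidised lipoproteins (mm9 chr5:17287508-17394777), was at 4.77, 5.37 and 4.99 FPKM in Vehicle, 14.035, 10.02 and 16.8 with CON-BDEV and 13.9, 14.5 and 15.6 with SE-BDEV. All vesicle libraries were above Vehicle, CON-BDEV 2 least, and the log2 difference was 1.31 ± 0.12 (SE; limma adjusted p = 5.15e-05). Marco, a scavenger receptor for particles, rose from 4.40 ± 0.613 to 7.01 ± 0.811 FPKM (0.57, limma adjusted p = 0.0016). Mrc1, the mannose receptor, rose from 114 ± 7.31 to 137 ± 7.496 FPKM (0.27, limma adjusted p = 0.00624), and Msr1, the class A scavenger receptor, by 0.42 (limma adjusted p = 0.0418). The Msr1 call was lost with the replicate block (limma adjusted p = 0.0520), without the expression filter (0.0994), and without any 1 of 8 libraries, CON-BDEV 2 being the exception (largest limma adjusted p = 0.167). Cd14, the lipopolysaccharide co-receptor, was the member that fell (−0.24, limma adjusted p = 0.00158).

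Treml4, a receptor of the TREM family on phagocytes (mm9 chr17:48403661-48414724), was nearly silent in Vehicle, at 0.257, 0.174 and 0.168 FPKM. It stood at 2.26, 1.23 and 3.26 FPKM with CON-BDEV and at 2.09, 2.61 and 3.79 with SE-BDEV, so every vesicle library passed 1 FPKM and no Vehicle library did. Treml4 entered the test through its vesicle values alone, which favours a call. Its ratio of means was 12.7, and its log2(FPKM + 1) difference 1.52 ± 0.18 (SE; limma adjusted p = 0.000422). Trem2, a better known relative, did not pass (154 ± 14.6 against 171 ± 6.32 FPKM, limma adjusted p = 0.0814), nor did its signalling partner Tyrobp (697 ± 5.30 against 719 ± 24.98 FPKM, limma adjusted p = 0.422).

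Lysosomal genes rose by small amounts, 14 of 32 of them, with none lower and a median of 0.11 (8.07% higher and 5.36% lower over all tested genes). The count rested on the Vehicle libraries: it was 6 without Vehicle 1 or Vehicle 2 and 7 without Vehicle 3. Lipa, the acid lipase that frees cholesterol and fatty acids in lysosomes (mm9 chr19:34566806-34601964), changed most. It was at 97.6, 96.5 and 98.4 FPKM in Vehicle, 170.1, 143 and 191 with CON-BDEV and 169, 168 and 188 with SE-BDEV (log2 difference 0.80 ± 0.07 SE, limma adjusted p = 5.63e-05). The groups were far apart against their spread. Ctsk, the protease cathepsin K, rose from 3112 ± 62.5 to 3855 ± 257 FPKM (0.31, limma adjusted p = 0.00341), and Laptm5, a lysosomal membrane protein, from 239 ± 6.25 to 289.8 ± 12.3 FPKM (0.28, limma adjusted p = 0.00113).

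Chemokine genes moved both ways. Among 8 tested chemokines and receptors, 3 rose and 2 fell (8.07% higher and 5.36% lower over all tested genes). Ccl7 and Ccl2, neighbours on chromosome 11 that attract monocytes, rose. Ccl7 (mm9 chr11:81859214-81861025) was at 1.02, 0.926 and 1.74 FPKM in Vehicle, 3.29, 5.53 and 6.43 with CON-BDEV and 5.95, 6.74 and 3.26 with SE-BDEV. CON-BDEV 1 and SE-BDEV 3 were the lowest vesicle libraries, both above Vehicle, and the log2 difference was 1.45 ± 0.20 (SE; limma adjusted p = 0.000879). Ccl2 (mm9 chr11:81849079-81850954) went from 24.9, 24.2 and 29.3 FPKM to 40.1, 55.0 and 50.3 with CON-BDEV and 50.2, 53.9 and 40.5 with SE-BDEV, with the same libraries lowest (0.86 ± 0.10 SE, limma adjusted p = 0.000386). Cxcr4, a chemokine receptor, was the third that rose (0.54, limma adjusted p = 0.00775).

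Ccl4 and Ccl9, which lie in another chemokine cluster of that chromosome, fell. Ccl4 (mm9 chr11:83476086-83478185) was at 20.3, 22.0 and 21.1 FPKM in Vehicle, 9.81, 16.4 and 9.63 with CON-BDEV and 10.3, 12.02 and 10.8 with SE-BDEV. CON-BDEV 2 was nearest to Vehicle but did not reach it (−0.85 ± 0.13 SE, limma adjusted p = 0.00137). Ccl9 (mm9 chr11:83386419-83392138) went from 24.4 ± 0.768 to 14.4 ± 1.597 FPKM, also with no overlap (−0.72 ± 0.07 SE, limma adjusted p = 0.000138). Ccl3, in the same cluster, did not pass (−0.13, limma adjusted p = 0.476).

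Of 23 genes of the inflammatory cytokine list, 5 rose and none fell (8.07% higher and 5.36% lower over all tested genes), with a median of 0.05. The count was 2 without Vehicle 1 or Vehicle 2, and 3 without Vehicle 3. Tnf was at 8.63 ± 0.293 FPKM in Vehicle and 9.27 ± 0.763 in the vesicle group (limma adjusted p = 0.351), and Il6 was listed at 0 in all 9 libraries. Il1b was at 5.28, 5.30 and 4.97 FPKM in Vehicle, 7.29, 6.80 and 5.41 with CON-BDEV and 7.79, 6.76 and 7.92 with SE-BDEV. Its vesicle libraries were all higher, CON-BDEV 3 by little (0.36, limma adjusted p = 0.0189), and the call was lost without any 1 of the Vehicle libraries (largest limma adjusted p = 0.0782). Ptgs2, the inducible cyclooxygenase, rose from 1.74, 1.76 and 1.68 FPKM to 2.93, 3.46 and 4.48 with CON-BDEV and 5.199, 4.03 and 3.04 with SE-BDEV (0.81, limma adjusted p = 0.00164), and Casp1, the inflammasome protease, from 41.0 ± 3.03 to 58.9 ± 4.89 FPKM (0.51, limma adjusted p = 0.000602). Nos2, the inducible nitric oxide synthase, was below the 1 FPKM filter, at 0.184, 0.265 and 0.245 FPKM in Vehicle and from 0.0623 to 0.164 in the vesicle libraries, and was not tested.

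Il4, the cytokine of alternative activation (mm9 chr11:53425963-53432167), was among the 12 strongest rises. It was at 3.30, 5.45 and 3.00 FPKM in Vehicle, 8.26, 10.2 and 13.8 with CON-BDEV and 11.7, 9.08 and 10.1 with SE-BDEV, with no overlap (1.25, limma adjusted p = 0.000545). Arg1, arginase 1, a marker of that state, went the other way. It was at 19.4, 22.6 and 27.4 FPKM in Vehicle against 15.6, 14.2 and 12.7 with CON-BDEV and 16.1, 13.8 and 14.5 with SE-BDEV, and the vesicle libraries were both lower and closer together (−0.63 ± 0.09 SE, limma adjusted p = 0.0012). F13a1, the coagulation factor XIII subunit of macrophages, fell from 4.86 ± 0.727 to 2.48 ± 0.264 FPKM (−0.75, limma adjusted p = 0.000316). Mmp12, macrophage elastase, fell from 1.88 ± 0.177 to 0.960 ± 0.111 FPKM (−0.56, limma adjusted p = 0.000649) and passed the filter through its Vehicle values. Agt, angiotensinogen, rose from 4.16 ± 0.0879 to 11.6 ± 1.82 FPKM (1.27, limma adjusted p = 2.25e-05), and Ptgr1, which reduces reactive lipid aldehydes and prostaglandins, rose by 1.24 (limma adjusted p = 1.12e-05).

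The complement list held 4 members higher and 1 lower of 10, against 8.07% and 5.36% of all tested genes (2 higher without Vehicle 1, and none lower without any 1 Vehicle library). C1qc, a chain of the C1q complex, was at 11.6, 14.2 and 14.3 FPKM in Vehicle, 26.2, 18.2 and 22.0 with CON-BDEV and 25.1, 25.9 and 25.4 with SE-BDEV, apart in all libraries (0.78, limma adjusted p = 0.000799). C1qb rose from 38.8 ± 3.40 to 56.2 ± 4.78 FPKM (0.52, limma adjusted p = 0.000858). C1qa was lower in level, passed the filter through its vesicle values, overlapped between groups, and lost its call (0.65, limma adjusted p = 0.0378) without Vehicle 1, Vehicle 2, CON-BDEV 1 or any 1 SE-BDEV library (largest limma adjusted p = 0.175). Of 23 genes of disease-associated microglia, 7 were higher and 2 lower (8.07% higher and 5.36% lower over all tested genes), the latter near the share over all genes. Without Vehicle 2 or Vehicle 3, 3 of them were higher, and 1 was lower without any 1 Vehicle library or CON-BDEV 3.

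Identity genes of resting microglia and macrophages were mostly higher where they changed. Only 9 of the 18 genes on the homeostatic list reached the filter. Of these 9, 5 rose and none fell (2 rose without any 1 Vehicle library, 3 without SE-BDEV 2). On the broader marker list 11 of 27 tested rose and 1 fell. Those that rose include C1qa, C1qb, C1qc, Msr1 and Laptm5, and the 1 that fell is Cd14. These genes are also on the complement, scavenger or lysosomal lists, so the marker count is not separate from those lists. Over all tested genes 8.07% were higher and 5.36% lower. The broader count was 5 without Vehicle 1, 6 without Vehicle 2 and 7 without SE-BDEV 1. Csf1r, the receptor for the growth factor that maintains microglia, was at 73.1 ± 4.11 FPKM in Vehicle and 87.4 ± 7.23 with vesicles (0.25, limma adjusted p = 0.025), a call lost without Vehicle 1 or Vehicle 2 (largest limma adjusted p = 0.128). Aif1, which encodes Iba1, was at 4.26, 5.69 and 6.30 FPKM in Vehicle, 8.32, 8.04 and 9.25 with CON-BDEV and 7.11, 7.22 and 6.56 with SE-BDEV. Its groups did not overlap (0.45, limma adjusted p = 0.0172), and the call was lost without Vehicle 1 (limma adjusted p = 0.0970). In bulk libraries, a change in the share of cells that express a gene and a change in RNA per cell cannot be told apart. Cx3cr1, the fractalkine receptor, was below the filter at no more than 0.201 FPKM in any library.

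Genes of the unfolded protein response rose in 14 of 25 cases, with none lower and a median of 0.20, against 8.07% higher over all tested genes (6 higher without Vehicle 1 or without Vehicle 2). Calr, the chaperone calreticulin, rose by 0.35 (limma adjusted p = 0.00587) and P4hb, a disulfide isomerase, by 0.31 (limma adjusted p = 0.00304). Hspa5, the chaperone BiP and the best known target of the response, was at 317, 328 and 369.6 FPKM in Vehicle, 414, 277 and 303 with CON-BDEV and 264, 327 and 361 with SE-BDEV. Its vesicle libraries lay on both sides of Vehicle (−0.07, limma adjusted p = 0.723).

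Amino acid stress genes, targets of ATF4, divided the vesicle libraries. Of 29 tested members, 3 passed, all higher, with a median of 0.06, a share close to the 8.07% of all tested genes. The 3 include Slc7a11, which is also on the antioxidant list. Trib3, Ddit3 and Chac1 were chosen for description after their values were seen. Trib3, a pseudokinase of this response, was at 18.3, 15.2 and 15.6 FPKM in Vehicle, 14.6, 46.2 and 39.7 with CON-BDEV and 47.0, 38.8 and 14.2 with SE-BDEV. CON-BDEV 1 and SE-BDEV 3 were below the whole Vehicle range while the other 4 vesicle libraries were far above it (0.84, limma adjusted p = 0.148). Ddit3, the transcription factor CHOP, showed the same libraries apart: 44.0, 34.5 and 33.2 FPKM in Vehicle, 30.2, 99.97 and 87.1 with CON-BDEV and 95.4, 69.8 and 32.2 with SE-BDEV (0.73, limma adjusted p = 0.199). Chac1, which degrades glutathione, was at 1.35 FPKM in CON-BDEV 1 and 1.87 in SE-BDEV 3 against 4.21 to 5.52 in the other vesicle libraries (0.70, limma adjusted p = 0.145). The number of ATF4 targets higher was 7 without CON-BDEV 1, 6 without SE-BDEV 3 and 14 without both, the last an alternative chosen after seeing the data. Each of these libraries belongs to a different preparation, so the split does not follow CON-BDEV against SE-BDEV.

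Damage-response and immediate early genes held a few members with the same library order. Gadd45a, a growth arrest gene, was at 11.1, 11.7 and 10.5 FPKM in Vehicle, 14.9, 25.7 and 29.3 with CON-BDEV and 24.9, 22.3 and 14.5 with SE-BDEV, so that CON-BDEV 1 and SE-BDEV 3 were only slightly above Vehicle (0.88, limma adjusted p = 0.0108). Of 20 p53 targets, 4 rose and 3 fell, against 8.07% higher and 5.36% lower over all tested genes. Of these targets, 2 rose without Vehicle 1 or Vehicle 2, and none fell without Vehicle 1. The number that fell was 1 without Vehicle 2, Vehicle 3 or CON-BDEV 3. Against the 8.07% higher and 5.36% lower over all tested genes, 4 of 23 immediate early genes rose. Only 1 of the 23, Jund, fell (−0.56, limma adjusted p = 0.00915), a share near that over all genes. The Jund call was lost without Vehicle 1 (limma adjusted p = 0.0592), while 3 of these genes fell without CON-BDEV 1 and 2 without CON-BDEV 2 or SE-BDEV 1.

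**Figure D4:**
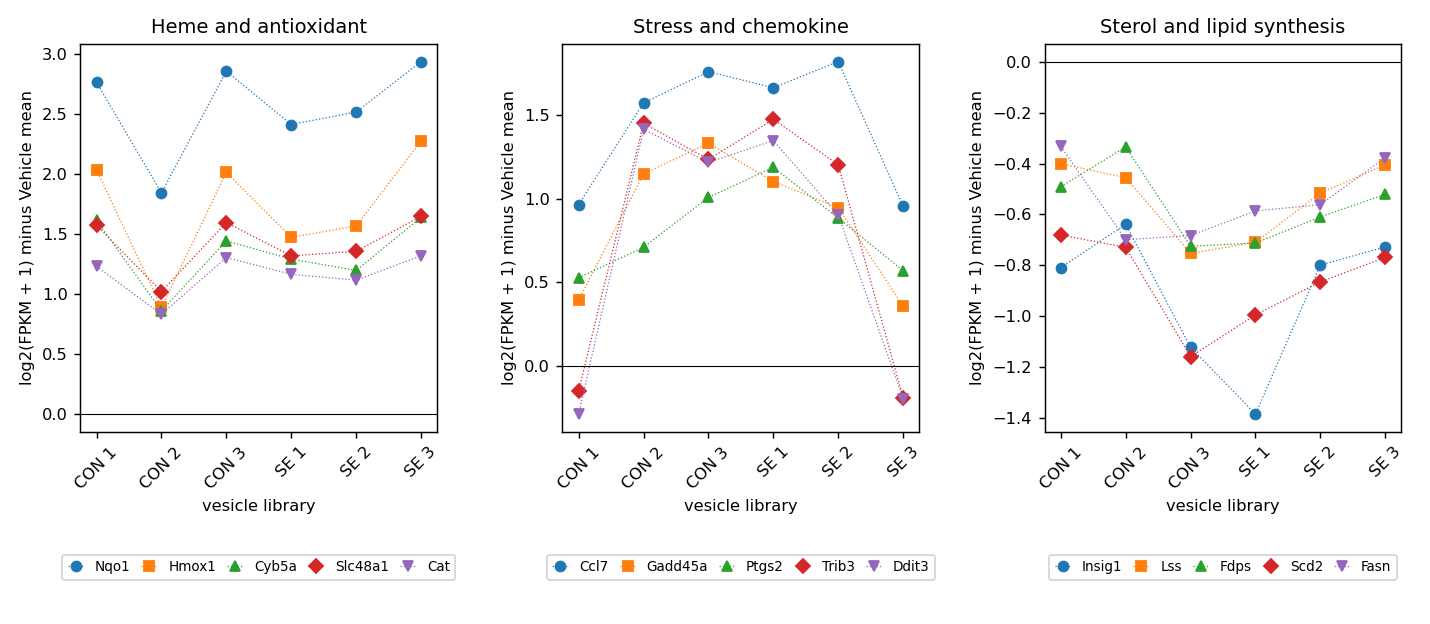
Log2(FPKM + 1) of each vesicle library minus the Vehicle mean (y axis) for the 6 vesicle libraries (x axis), with 5 genes in each of 3 panels and dotted lines that join the points of 1 gene and mark no order. Among the 5 heme and antioxidant genes shown CON-BDEV 2 is lowest, whereas among the 5 stress and chemokine genes shown CON-BDEV 1 and SE-BDEV 3 are lowest. Slc7a11, an antioxidant gene not shown, is lowest in CON-BDEV 1.

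The vesicle libraries thus differed from each other along more than 1 line. Among the 850 higher genes, CON-BDEV 2 was nearest to the Vehicle mean in 399 (46.9%) and CON-BDEV 3 farthest in 319 (37.5%). Among the 564 lower genes, CON-BDEV 2 was nearest in 196 (34.8%) and CON-BDEV 1 in 139 (24.6%). For antioxidant genes the list's median log2 difference was 0.61, 0.42 and 0.72 in CON-BDEV 1 to 3 and 0.54, 0.61 and 0.65 in SE-BDEV 1 to 3. Sterol genes gave another order, −0.24, −0.30 and −0.59 for CON-BDEV and −0.56, −0.42 and −0.30 for SE-BDEV. CON-BDEV 1 and SE-BDEV 3, strong for Hmox1 and Nqo1, were therefore among the weaker libraries for the sterol list. The median SD of a gene was 0.0771 over the 6 vesicle libraries and 0.05005 over the Vehicle libraries on the log2 scale. Over 3 libraries each, it was 0.0777 with CON-BDEV and 0.0648 with SE-BDEV. The SD was larger in the vesicle group for 7772 of 10532 genes. That count sets 6 libraries against 3 and was not compared with what equal spread would give. The cause of these differences between vesicle libraries was not tested.

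Genes of general cell functions differed in how many passed. No member of the 32 oxidative phosphorylation genes, 32 ribosomal protein genes or 15 heat shock genes passed the limma test in either direction, with list medians of 0.06, −0.04 and 0.02. The vesicle libraries were not alike in the first 2 of these lists. The median of the oxidative phosphorylation list against the Vehicle mean was 0.06, 0.08 and 0.14 in CON-BDEV 1 to 3 and 0.01, 0.02 and 0.01 in SE-BDEV 1 to 3, and 9 of its 32 genes had an unadjusted p below 0.05 between the preparations (limma; none passed after adjustment). For ribosomal protein genes the medians were −0.09, 0.02 and 0.03 with CON-BDEV and −0.06, −0.08 and −0.10 with SE-BDEV, with 8 of 32 genes below 0.05 unadjusted. Over all tested genes that share was 4.83%. Of 23 glycolysis and hypoxia genes, 7 fell and 3 rose (8.07% higher and 5.36% lower over all tested genes). The rises were lost without any 1 Vehicle library, and 1 remained without SE-BDEV 1 or SE-BDEV 2. Bnip3, a mitophagy receptor that hypoxia raises, fell from 39.0 ± 1.36 to 26.3 ± 1.84 FPKM (−0.55, limma adjusted p = 0.000101), while Vegfa, another hypoxia target, rose by 0.34 (limma adjusted p = 0.0382), a call lost without any 1 of 7 libraries (largest limma adjusted p = 0.126) and with the replicate block (limma adjusted p = 0.0678). Of 25 genes of the G2 and M phases, 6 fell and none rose, a share of lower genes above the 5.36% over all tested genes (1 fell without Vehicle 1, 3 without Vehicle 2 and 2 without Vehicle 3), and Cenpf, a kinetochore protein, fell by 0.22 (limma adjusted p = 0.00293). Of 27 genes of the G1 and S phases, 1, Mcm7, fell, near the 5.36% lower over all tested genes, and 4 fell without CON-BDEV 1. Among 15 interferon-induced genes, 3 fell and none rose, against 5.36% lower and 8.07% higher over all tested genes (1 fell without any 1 Vehicle library). Ifitm3, an antiviral membrane protein, fell by 0.45 on the log2 scale (limma adjusted p = 0.00446).

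Of 25 genes of vesicle formation and endosomes, 1 rose and 1 fell (3 rose without CON-BDEV 2). Each is 4% of the list, below the 8.07% higher and 5.36% lower over all tested genes. Cd63, a tetraspanin of late endosomes and exosomes, rose from 574 ± 2.06 to 733 ± 39.1 FPKM (0.35, limma adjusted p = 0.000441), and Anxa2, an annexin, fell by 0.29 on the log2 scale (limma adjusted p = 0.000879).

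Markers of other brain cell types were low or at 0 in most cases. Of 24 neuronal markers, 6 reached 1 FPKM, and their summed level was 185 to 190 FPKM in Vehicle, 183 to 191 with CON-BDEV and 180 to 190 with SE-BDEV. Astrocyte markers summed to 262 to 267, 250.97 to 275 and 259 to 266 FPKM, and oligodendrocyte markers to 14.2 to 14.5, 10.9 to 13.7 and 12.2 to 12.8 FPKM in the same order of groups. The neuronal and astrocyte sums overlapped between groups, and the oligodendrocyte sum was below the Vehicle range in all vesicle libraries. Endothelial markers, of which 2 of 13 reached 1 FPKM, summed to 41.1 to 46.1 FPKM in Vehicle, 40.7 to 49.2 with CON-BDEV and 47.4 to 52.7 with SE-BDEV. Snap25, a defining neuronal marker, was above 0 in CON-BDEV 1 alone, at 0.033 FPKM. Hba-a1, a hemoglobin gene of red cells, was at 0 in all libraries. Gfap, the astrocyte filament, was at 0 in all Vehicle libraries and at 0.0125, 0.0140 and 0.0237 FPKM with CON-BDEV and 0.0627, 0.0392 and 0.0237 with SE-BDEV, levels of few fragments. It was 1 of 7 genes with that pattern, none above 0.154 FPKM, while 5 genes showed the opposite pattern. Uchl1, a ubiquitin hydrolase abundant in neurons and in the neuroblastoma list, rose from 73.7 ± 2.51 to 98.5 ± 4.62 FPKM (0.41, limma adjusted p = 0.000138). The sum of neuroblastoma markers was 169 to 176 FPKM in Vehicle, 186 to 198 with CON-BDEV and 184 to 192 with SE-BDEV. The part of carried-over RNA in these values was not tested.

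The pooled comparison rests on both preparations, which were set against each other within the vesicle group. No gene passed an adjusted p of 0.05 in the limma contrast of SE-BDEV against CON-BDEV (0% called), and 509 (4.83%) had an unadjusted p below 0.05. The smallest adjusted p was 0.111, for Srp54a, a gene that was not called against Vehicle and was chosen for mention after its values were seen. Without CON-BDEV 1 the contrast called 1 gene, Hist1h2bh, and without SE-BDEV 2 it called 1 gene, Srp54a. Among the 1414 genes called in the pooled comparison, 36 (2.55%) had an unadjusted p below 0.05 in this contrast. That share is in part set by the selection, since the pooled fit counts a difference between preparations as spread. A p that misses the threshold does not show that the preparations act alike, so the intervals of the difference are given. For 1194 of the 1414 genes the 95% interval of SE-BDEV minus CON-BDEV lay within the size of the pooled difference on both sides of 0. The same selection bears on this count, because genes that differ between preparations were less likely to be called.

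For Nqo1 the log2 difference of SE-BDEV minus CON-BDEV was 0.13, with a 95% interval of −0.38 to 0.65, against a pooled difference of 2.56. For Gclm it was 0.09 (−0.28 to 0.46), for Slc7a11 0.12 (−0.19 to 0.44) and for Slc48a1 0.04 (−0.25 to 0.34). The interval for Hmox1 was wider, −0.48 to 0.73 around 0.12. Insig1 gave −0.11 (−0.46 to 0.23) and Scd2 −0.02 (−0.25 to 0.21). Aif1 was higher in each CON-BDEV library than in any SE-BDEV library, a difference of −0.26 (−0.49 to −0.03) that did not pass adjustment over all genes (limma adjusted p = 0.991). The largest difference among called genes, 0.48 (0.22 to 0.75; limma adjusted p = 0.991), was that of Ugt1a6b, named after its values were seen. Its reads can be shared with other Ugt1a genes, which use common exons.

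**Figure D5:**
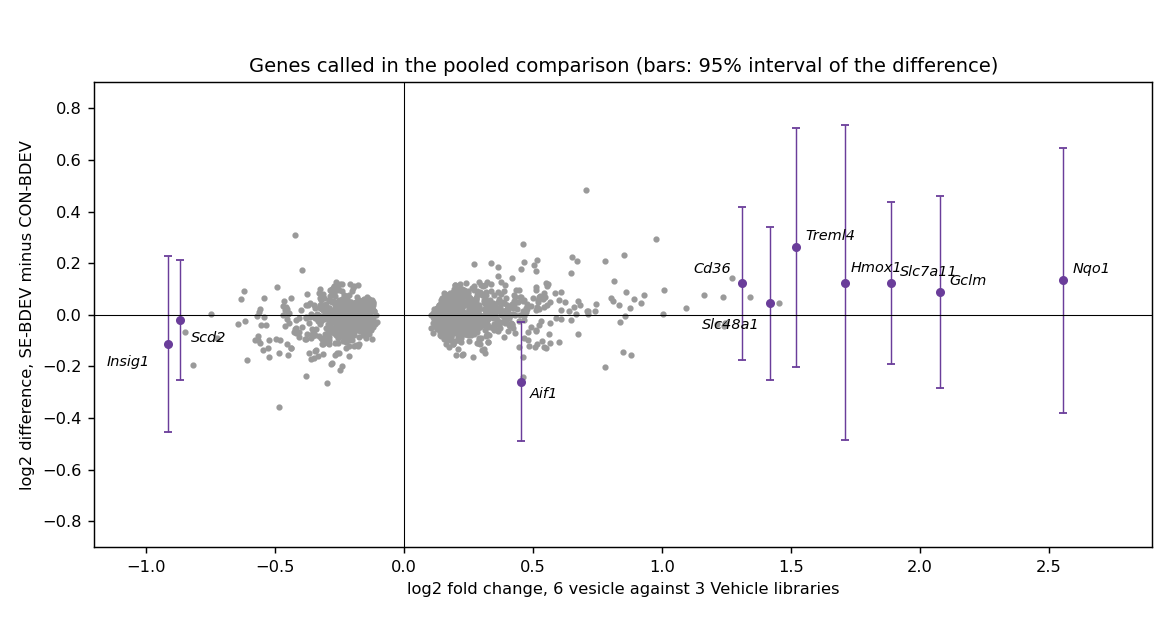
Log2 difference of SE-BDEV minus CON-BDEV (y axis) against the log2 fold change of all vesicles against Vehicle (x axis) for the 1414 called genes in grey, with 10 named genes and their 95% intervals on the y axis. The pooled changes of these genes reach 2.56, while the differences between preparations stay between −0.36 and 0.48 over all called genes. That range is in part set by the selection of called genes.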

How the data were processed

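PolyA RNA of BV2 cells was sequenced in 9 libraries. The deposited FPKM values come from TopHat2 and Cuffdiff on mm9, per the submitters' processing notes, with versions not given in the sources used here. Positions on mm9 are the loci that Cuffdiff lists, which can be wider than the named gene. Both FPKM tables were joined by gene, and the Vehicle columns, taken once, differed between them by a factor of 1.00044, which was removed. The authors' deposited comparison tables hold log2 fold changes, p-values with q-values and a test score, used here only where named. Fth1, which Cuffdiff marked as failed in both tables per the file headers' status column, and Ftl1, so marked in the CON-BDEV table, were left out.

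Genes that averaged 1 FPKM or more were fitted with limma 3.58.1 (R 4.3.3; trend, 2-sided) on log2(FPKM + 1), with Benjamini-Hochberg adjustment over 10532 genes and a threshold of 0.05. The fit compared 6 vesicle libraries with 3 Vehicle libraries, and a fit of 3 groups gave SE-BDEV against CON-BDEV. An exact permutation of the 9 libraries reached at best p = 0.0119, as it did for 1118 of the 1414 called genes. The code was tested on simulated data.

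The text names the 12 highest and 12 lowest genes that passed with no overlap of groups, up to 4 passing members of each of 27 pathway and 6 marker lists (2 by mean level where none passed), and 12 fixed genes. Other list members named, such as Cat, Prdx1, Gpx1, Gclc, Slc11a1, Srebf2, Cd14 and Hspa5, were chosen after their values were seen. Some results are not reported here. Clone-named, predicted and joined entries were passed over. The members and lists were chosen with earlier results of these data known. Alternatives were the pseudocount, the filter, normalization, a block on replicate number, library weights and leaving out each library.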

Additional observations from a re-analysis of the deposited data

Results flagged for a closer look

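Of 108 named genes tested over the 6 vesicle libraries, 7 held 1 library apart from the other 5 by Dixon's 95% criterion, a large gap to the nearest library relative to the whole range, and chance gives about 1 in 20. Cpt1a, a gene of fatty acid oxidation, was lowest in CON-BDEV 2, at 14.8 FPKM. Cd63 was highest in CON-BDEV 3, at 811.8 FPKM, as was Cox7c, a subunit of cytochrome c oxidase, at 1379 FPKM. Cst3, the protease inhibitor cystatin C, was lowest in SE-BDEV 1, at 652.1 FPKM, and Oas1a, an interferon-induced gene, was highest there, at 8.02 FPKM. Fosl1, an immediate early gene, was lowest in SE-BDEV 2, at 2.56 FPKM, and Ier3, another, lowest in CON-BDEV 1, at 121.3 FPKM.

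Ftl1, ferritin light chain, belongs to no test because its value failed in the CON-BDEV libraries. Where it was quantified, it averaged 13943 ± 549 FPKM (SD, n = 3) with SE-BDEV and 12349 ± 265 FPKM in Vehicle.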

How the results depend on the processing

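The number of called genes was 1414, and it depended most on the libraries of the fit. Leaving out 1 library gave 535 to 1681 calls, 349 to 981 higher and 186 to 700 lower, and weighting libraries by their spread gave 2225 calls with 970 lower. Lysosomal genes higher ranged from 6 to 16 and unfolded protein response genes from 6 to 14 when 1 library was left out, and the SE-BDEV against CON-BDEV contrast called 0 to 1 genes. Without the expression filter the median of the heme list was 0.15. Quantile normalization or median centring moved the higher share of calls from 60.1% to 51.0%. Of 96 called named genes, 64 passed without each library and under each alternative planned. Without the filter 82 of the 96 kept their calls. Those lost included Il1b, C1qa, Csf1r, Slc3a2, Aif1, Msr1 and Vegfa (limma adjusted p of 0.0555 to 0.0994). The C1qa call was also lost with quantile normalization (limma adjusted p = 0.0897) and with the library number as a block (0.0608). The Vegfa call was lost with that block (limma adjusted p = 0.0739) and in the fit of 3 groups (0.0516).

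Fits on libraries that share the first number of their names were chosen after seeing the data. Number 1 alone gave 232 calls (170 higher, 62 lower), with 3 sterol genes and 2 fatty acid genes lower and 5 lysosomal and 3 unfolded protein response genes higher. Number 2 alone, with 1 Vehicle library that is assumed to vary like the 4 vesicle libraries beside it, gave 16 calls (13 higher, 3 lower), with 4 antioxidant and 2 heme genes higher and 0 in the sterol, fatty acid, lysosomal and unfolded protein response lists, counts that an arm of 1 library limits. All 1414 called genes had the same sign in both. These genes were called on the same 9 libraries, so that agreement was largely set by the selection and is no separate support. Signs turned in genes that never passed: Rps18, a ribosomal protein, was 0.021 under quantile normalization and 0.0021 without CON-BDEV 1 and SE-BDEV 3, Tyrobp was −0.0030 under quantile normalization, and Hspa8, a chaperone, was 0.011 with number 1 alone.

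With the replicate number as a block, 1185 genes passed, 1144 of them among the 1414. Replicate numbers do not pair the libraries: deviations of same-numbered libraries correlated at −0.04 on average (−0.26 to 0.19), and 3 of 9 libraries were closest to their own number.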

Other observations

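Other genes among the strongest falls belonged to no list that fell as a whole. Tuba1a, an alpha tubulin, fell from 55.5 ± 1.02 (SD, n = 3) to 36.0 ± 3.54 FPKM (SD, n = 6; log2 difference −0.62, limma adjusted p = 0.000249). Ankrd37, an ankyrin repeat gene that hypoxia induces, was at 4.48, 6.74 and 4.76 FPKM in Vehicle, 3.42, 2.18 and 2.88 with CON-BDEV and 2.11, 2.43 and 2.43 with SE-BDEV, with no overlap (−0.82, limma adjusted p = 0.00155). Like Nqo1, Ankrd37 did not pass in the authors' deposited Cuffdiff comparisons, with q-values of 0.654 for CON-BDEV and 0.448 for SE-BDEV. Lipg, endothelial lipase, differed by −0.61 (limma adjusted p = 0.0103), a call lost without Vehicle 1 (limma adjusted p = 0.0598), and H1f0, a linker histone, by −0.58 (limma adjusted p = 0.00347).

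Hotairm1, a long noncoding RNA, was singled out after its values were seen. It was at 15.8, 13.4 and 6.64 FPKM in Vehicle, 31.4, 28.0 and 40.7 with CON-BDEV and 10.7, 14.1 and 18.9 with SE-BDEV. The CON-BDEV libraries were above all others, while SE-BDEV and Vehicle overlapped. Its SE-BDEV minus CON-BDEV difference of −1.16 on the log2 scale did not pass adjustment over all genes.

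Nupr1, a stress-induced chromatin protein, was at 47.1, 44.2 and 43.6 FPKM in Vehicle, 47.1, 91.9 and 94.5 with CON-BDEV and 93.4, 86.2 and 51.2 with SE-BDEV (limma adjusted p = 0.0435). CON-BDEV 1 and SE-BDEV 3 were close to Vehicle and the other 4 vesicle libraries well above it, the library order of Trib3 and Ddit3. Nupr1 was singled out after its values were seen.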
